A study of Mus musculus with 10 samples.

Results

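The nitric oxide and cyclic GMP pathway was examined through 10 genes, Nos1, Nos3, Gucy1a1, Gucy1b1, Prkg1, Pde5a, Pde9a, Cav1, Ddah1 and Ddah2, chosen by name from the 29564 genes listed in the expression tables of the study. All 10 were found, Gucy1a1 and Gucy1b1 under their older symbols Gucy1a3 and Gucy1b3. Bulk polyadenylated RNA of the left ventricle was measured in 5 controls, numbered TT-583 to TT-587, and in 5 HFD+mTAC animals, numbered TT-588 to TT-592, which model HFpEF (heart failure in which the ejection fraction is preserved). All 10 mice were wild-type C57BL/6J males. HFD+mTAC mice had moderate transverse aortic constriction (mTAC), a surgical narrowing of the aorta, at 11 weeks of age and then ate a high-fat diet (HFD) with 60% of kilocalories from fat. Control mice had no constriction and ate chow with 10% of kilocalories from fat. HFD+mTAC mice received vehicle (DMSO, PEG-300 and water). The paper began such dosing of HFD+mTAC mice after 16 weeks of induction. Its methods give 10 mL/kg daily for 6 to 9 weeks, a range that also covers mice of another HFpEF model. The paper does not state which schedule these 10 mice had. The labels give vehicle as the treatment of the control mice too, without a schedule of their own. Surgery and diet were given together to one group and withheld together from the other, so their parts cannot be told apart, and L-NAME, the nitric oxide synthase inhibitor of another HFpEF model, was no part of this one.

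Nitric oxide is made from arginine by nitric oxide synthases, of which Nos1 encodes the neuronal and Nos3 the endothelial enzyme. It binds soluble guanylate cyclase, a heterodimer of an alpha subunit (Gucy1a1) and a beta subunit (Gucy1b1), which then makes cyclic GMP. Cyclic GMP activates protein kinase G (Prkg1), which relaxes smooth muscle and restrains growth and stiffening of cardiomyocytes, and it is broken down by phosphodiesterases such as those of Pde5a and Pde9a. Caveolin-1 (Cav1) holds the endothelial synthase inactive in caveolae, and Ddah1 and Ddah2 encode dimethylarginine dimethylaminohydrolases, the family that clears methylated arginines that inhibit the synthases. Reduced signaling along this pathway is a long-standing theme of HFpEF research.

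The genes of the enzyme's subunits lie side by side on the minus strand of chromosome 3 (GRCm38), Gucy1b1 from 82032006 to 82074689 and Gucy1a1 from 82092427 to 82145789. Their upstream sequences, and that of the distal start of Prkg1, the member with the smallest p-value in counts, are shown because the cyclase subunits and the kinase form the core of the pathway. They are reference sequence from RefSeq promoter windows (GRCm38.p6), cut to the bases outside annotated exons and written in the direction of transcription, and capitals mark a GC box (GGGCGG) or a CCAAT box (CCAAT), each on either strand.
Gucy1a1, chr3:82145790-82145900, minus strand, 111 bases: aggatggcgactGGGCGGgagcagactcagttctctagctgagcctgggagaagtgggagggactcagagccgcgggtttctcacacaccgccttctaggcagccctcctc
Gucy1b1, chr3:82074712-82074961, minus strand, 250 bases: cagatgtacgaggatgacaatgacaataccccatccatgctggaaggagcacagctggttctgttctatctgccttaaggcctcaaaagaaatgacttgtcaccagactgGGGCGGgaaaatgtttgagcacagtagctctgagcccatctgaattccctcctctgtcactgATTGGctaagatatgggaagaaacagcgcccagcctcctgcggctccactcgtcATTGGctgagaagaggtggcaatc
Prkg1, chr19:31765034-31765283, minus strand, 250 bases: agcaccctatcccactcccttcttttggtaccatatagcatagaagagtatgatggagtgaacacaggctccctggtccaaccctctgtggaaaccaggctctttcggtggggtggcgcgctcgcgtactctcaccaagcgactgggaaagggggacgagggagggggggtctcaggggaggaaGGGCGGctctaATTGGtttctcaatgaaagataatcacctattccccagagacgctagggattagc
RefSeq windows were matched for 8 of the 10 members, with 11 windows in all, and none was used for Nos3 and Pde9a. In the full 250 bases upstream of each start, GGGCGG was present in 7 of the 11 member windows and in 32.7% of all 32851 windows. CCAAT was present in 2 of the 11, the Gucy1b1 window with 2 copies and the distal Prkg1 window with 1, and in 33.8% of all windows. These matches describe the letters only.

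Each library held 34.2 to 53.7 M estimated counts, of which 43.8 to 52.7% were of mitochondrially encoded genes, and 12.7 to 21.1 M were of other protein-coding genes. The test took 13297 genes, those that code for protein outside the mitochondrial genome and were detected (1 count or more) in 9 or 10 mice. All 10 members passed this filter. Levels are given as normalised counts (CPM, scaled to a common library size with TMM factors and not divided by length) and, where genes are compared with each other, as TPM, which are divided by transcript length. Nothing in the labels says whether mice shared a cage, litter or sequencing batch.

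No member passed the test between the groups. In edgeR's quasi-likelihood test with adjustment over all 13297 genes, 0 of the 10 had an adjusted p under 0.05, against 0.0602% of all genes tested (8 genes). At an unadjusted p under 0.05 there was 1 member, Prkg1, against 8.27% of all genes, and DESeq2 and limma also called 0 of the 10. The CPM of the groups overlapped for all 10 members, whereas they did not overlap for 1.96% of all genes. The median log2 fold change of the members was 0.08, with 6 above 0 and 4 below, and that of all genes was 0.00. In counts, the 95% interval of the fold of each member apart from Nos1 reached no lower than 0.698 and no higher than 1.67, whereas the interval of Nos1 ran from 0.259 to 2.23. With lengths as offset the intervals of all members apart from Cav1 were wider on the log2 scale. They reached 1.23 for Gucy1b1, 1.54 for Pde9a and -1.16 for Ddah2.

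**Figure D1:**
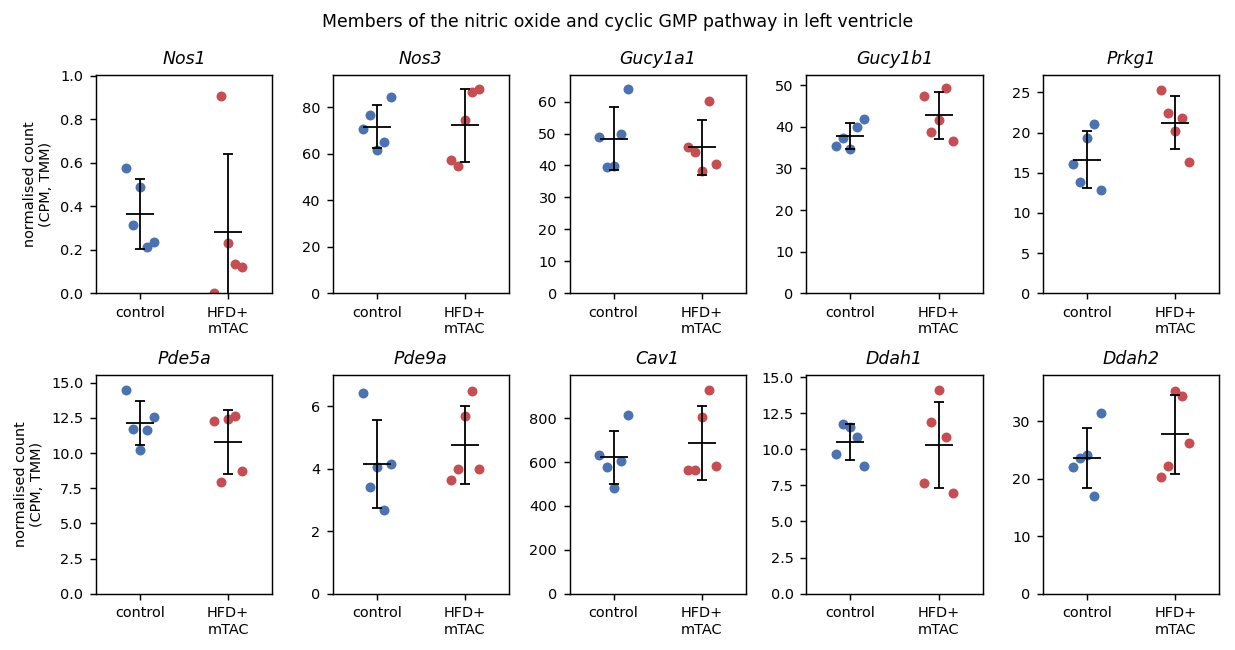
Normalised counts (CPM, TMM-scaled, linear axis from 0) of the 10 members, with 1 panel per gene, 1 point per mouse, and the mean and SD of 5 mice as a bar; the lower end of the SD bar of Nos1 in HFD+mTAC mice is cut at 0. The groups overlap in every panel, and a single HFD+mTAC mouse at 0.907 CPM stands above the rest for Nos1.

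Of the synthases, Nos3 was readily measured and Nos1 barely. Nos3 (chromosome 5, 24364810 to 24384474) read 70.8, 76.6, 61.7, 65.1 and 84.5 CPM in the control mice and 57.1, 54.8, 74.6, 86.8 and 87.8 CPM in the HFD+mTAC mice. HFD+mTAC mice held both the 2 lowest and the 2 highest values, so their spread was wider and their mean nearly the same, 72.2 ± 15.7 against 71.7 ± 9.15 CPM (SD, n = 5 each). The log2 fold change of Nos3 was 0.01 (SE 0.14, 95% interval -0.30 to 0.32, edgeR adjusted p = 0.994). Nos1 (chromosome 5, 117781032 to 117958840) had 12, 6, 10, 3 and 3 counts in the control mice and 0, 15, 3, 2 and 2 in the HFD+mTAC mice. The 0 in mouse TT-588 allows up to 3 counts, which is 0.192 CPM in that library (counting error only), close to the 0.211 CPM of mouse TT-586. Mouse TT-589, with 15 counts or 0.907 CPM, was above every control mouse, while 3 of the other HFD+mTAC mice, at 0 to 0.137 CPM, were below every control mouse. At this depth the log2 fold change of Nos1, -0.40 (SE 0.72, interval -1.95 to 1.16, edgeR adjusted p = 0.928), leaves a change of 2 times in either direction undetectable. Nos1 was lower in TPM than all but 0.0827% of the genes tested.

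The inducible synthase Nos2, named by rule although it is no member, was listed with more counts than Nos1 in every mouse, from 229 to 645. Its level was 31.0, 18.2, 24.6, 26.9 and 30.0 CPM in control mice and 14.7, 16.2, 22.2, 26.2 and 29.1 CPM in HFD+mTAC mice. The 2 lowest values were in HFD+mTAC mice, and the log2 fold change of -0.27 (SE 0.20, edgeR adjusted p = 0.789) was within the spread of the mice.

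Cav1 (chromosome 6, 17306335 to 17341452) was the most abundant member. It read 633, 577, 482, 603 and 813 CPM in control mice and 563, 562, 807, 928 and 582 CPM in HFD+mTAC mice. Mouse TT-591 was the highest and the other 4 HFD+mTAC mice lay within the range of the controls, with a log2 fold change of 0.15 (SE 0.17, interval -0.22 to 0.51, edgeR adjusted p = 0.887). In TPM, 3 HFD+mTAC mice (81.6, 82.3 and 84.6) exceeded all controls (56.7 to 77.1), and the difference on log2(TPM + 1) was 0.34 (limma, interval 0.07 to 0.62), with an unadjusted p of 0.0182 and an adjusted p of 0.664. Cav3, the caveolin of muscle cells, had 66.7 ± 6.01 CPM in control and 59.2 ± 4.67 in HFD+mTAC mice (SD, n = 5 each; log2 fold change -0.17, edgeR adjusted p = 0.641).

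The alpha subunit Gucy1a1 read 48.9, 39.4, 40.0, 49.8 and 63.9 CPM in control mice and 45.7, 44.3, 38.2, 60.1 and 40.3 CPM in HFD+mTAC mice. Most mice of both groups lay between 38.2 and 49.8, with 1 higher mouse in each group, TT-587 and TT-591. The log2 fold change was -0.08 (SE 0.15, interval -0.41 to 0.25, edgeR adjusted p = 0.936), and it was 0.04 without mouse TT-587. The beta subunit Gucy1b1 was tighter, at 35.3, 37.2, 34.6, 40.0 and 41.8 CPM in control mice and 47.5, 38.7, 41.7, 49.3 and 36.5 CPM in HFD+mTAC mice. Mice TT-588 and TT-591 were above every control, and none was below. Its log2 fold change of 0.18 had the smallest SE of the members (0.10, interval -0.04 to 0.40, edgeR adjusted p = 0.706). Per length the same difference was larger and less certain, 0.53 on log2(TPM + 1) (limma, interval -0.16 to 1.22, adjusted p = 0.798).

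Because the cyclase works as a heterodimer, the subunits were also compared within each mouse. The ratio of Gucy1a1 to Gucy1b1 in TPM was 0.524, 0.399, 0.821, 0.715 and 1.15 in control mice, against 0.329, 0.332, 0.263, 0.508 and 0.755 in HFD+mTAC mice. The 3 lowest ratios were in HFD+mTAC mice, but the ranges overlapped. The difference of -0.74 on the log2 scale did not pass (two-sided exact permutation test, p = 0.0873, adjusted over 6 ratios 0.262). In CPM, without the lengths, it was -0.25. Control mouse TT-587 alone had a ratio above 1. The highest ratios, of mice TT-585, TT-587 and TT-592, were in the mice with the longest deposited length of Gucy1b1. That length, by which its TPM are divided, was 3455 to 3783 bases in these mice. The other alpha subunit, Gucy1a2, was rare, with 3 to 26 counts per mouse and a log2 fold change of 0.01 (SE 0.56, edgeR adjusted p = 0.999), while Gucy1b2 had 0 to 7 counts and did not pass the filter.

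In counts, Prkg1 (chromosome 19, 30564489 to 31765033, minus strand) came closest to a difference. It read 16.1, 13.8, 19.3, 21.1 and 12.8 CPM in control mice and 25.3, 22.4, 20.2, 21.8 and 16.4 CPM in HFD+mTAC mice. Of the 5 HFD+mTAC mice, 3 were above every control, mice TT-590 and TT-592 lay among the controls, and the means were 21.2 ± 3.27 and 16.6 ± 3.53 CPM (SD, n = 5 each). The fold was 1.28 (95% interval 1.01 to 1.61), with an unadjusted p of 0.0446 and an edgeR adjusted p of 0.594, and it ranked 998 of 13297 genes by p. Per length the difference was 0.21 on log2(TPM + 1) (limma adjusted p = 0.798). On that scale the unadjusted limma p was 0.1205 for Prkg1 and smaller for Cav1, at 0.0182. Its log2 fold change stayed between 0.27 and 0.44 with each mouse left out in turn.

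The phosphodiesterases had opposite signs, and neither passed. Pde5a, the cyclic GMP-specific enzyme that sildenafil inhibits (chromosome 3, 122728947 to 122859374), read 14.5, 11.7, 10.2, 11.6 and 12.6 CPM in control mice and 12.3, 7.92, 12.5, 12.6 and 8.72 CPM in HFD+mTAC mice. Mice TT-589 and TT-592 were below every control and the other HFD+mTAC mice were among them, with a log2 fold change of -0.17 (SE 0.16, interval -0.52 to 0.18, edgeR adjusted p = 0.849). Pde9a, which encodes an enzyme with high affinity for cyclic GMP (chromosome 17, 31386210 to 31476310), read 6.43, 3.42, 4.07, 2.68 and 4.17 CPM in control mice and 3.65, 3.99, 5.69, 6.49 and 3.99 CPM in HFD+mTAC mice. Control mouse TT-583 and HFD+mTAC mouse TT-591 were the highest of their groups at nearly equal levels, and the log2 fold change was 0.19 (SE 0.25, interval -0.36 to 0.74, edgeR adjusted p = 0.910). The ratio of Pde5a to Pde9a in TPM ran from 0.125 to 0.360 in control mice and from 0.0779 to 0.449 in HFD+mTAC mice (exact permutation test of the log2 ratio, p = 0.238, adjusted 0.365). The ratio of Prkg1 to Pde5a, which sets the effector beside the enzyme that removes its activator, was 1.21, 1.27, 2.20, 2.00 and 1.06 in control mice, against 2.44, 3.62, 1.71, 2.02 and 2.10 in HFD+mTAC mice. Mice TT-588 and TT-589 were above all controls, and the log2 difference of 0.63 did not pass (exact permutation test, p = 0.0714, adjusted 0.262).

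The dimethylaminohydrolases were present at modest levels. Ddah1 (chromosome 3, 145758675 to 145894277) read 9.70, 11.8, 11.5, 10.9 and 8.81 CPM in control mice and 7.69, 11.9, 14.1, 10.9 and 6.94 CPM in HFD+mTAC mice. HFD+mTAC mice again lay on both sides of the controls, with 2 above and 2 below all of them, and the log2 fold change was -0.04 (SE 0.19, interval -0.45 to 0.38, edgeR adjusted p = 0.981). Ddah2 (chromosome 17, 35059035 to 35062095) read 21.99, 23.6, 24.1, 17.0 and 31.5 CPM in control mice and 20.2, 22.2, 35.3, 34.4 and 26.2 CPM in HFD+mTAC mice. Mice TT-590 and TT-591 were above every control, and the log2 fold change of the counts was 0.23 (SE 0.19, interval -0.18 to 0.63, edgeR adjusted p = 0.807).

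For Ddah2 the direction depended on the scale. In TPM it read 2.21, 2.70, 2.10, 1.97 and 3.004 in control mice, against 1.01, 0.799, 2.60, 1.39 and 2.38 in HFD+mTAC mice. Mice TT-588, TT-589 and TT-591 were below every control in TPM, and the difference on log2(TPM + 1) was -0.48 (limma, interval -1.08 to 0.12, adjusted p = 0.794), against 0.23 in counts. The scales differ through the average effective transcript length that was deposited for each gene and mouse, the length by which counts are divided. This length was 1729, 1565, 1684, 1216 and 1415 bases for Ddah2 in control mice and 3103, 3602, 1815, 3427 and 1892 bases in HFD+mTAC mice. All 5 HFD+mTAC mice were above all 5 controls, which held for 0.391% of all genes tested in either direction, and the exact permutation test gave p = 0.00794, the smallest that 5 mice against 5 allow (adjusted over the 10 members 0.0794). The longest annotated transcript of Ddah2 has 1342 bases, and the deposited length exceeded it in 9 of 10 mice.

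**Figure D2:**
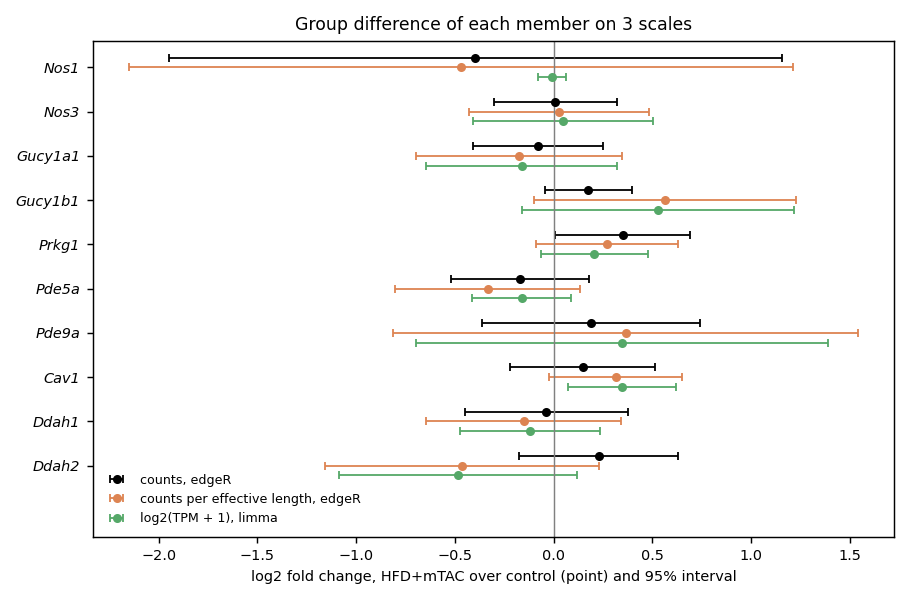
Log2 fold change of HFD+mTAC over control mice (x axis) for each member with its 95% interval, from counts (black, edgeR), counts per effective length (orange, edgeR) and log2(TPM + 1) (green, limma). Every interval of the counts except that of Prkg1 crosses 0, and the points of Ddah2 lie at 0.23 for counts but at -0.46 and -0.48 per length.

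Lengths that moved between mice were not particular to Ddah2. For Pde9a they ran from 382 to 1631 bases, a 4.27-fold range that was wider than in 90.5% of the genes tested, and they widened the spread of its level between mice from 2.42-fold in CPM to 6.44-fold in TPM. For Gucy1b1 they ran from 1470 to 3783 bases, with mice TT-585, TT-587 and TT-592 at 3455 to 3783 and the other 7 at 1470 to 2301, and the same 3 mice had the lowest TPM (1.47, 1.49 and 1.73), at 34.6, 41.8 and 36.5 CPM among mice that ran from 34.6 to 49.3 CPM. For Nos1, Nos3, Prkg1 and Pde5a the length exceeded the longest annotated transcript in all 10 mice, for example 6519 to 9895 bases for Nos3 against 4132 annotated. This held in all 10 mice for 32.6% of the genes tested. Of the 10 members, 0 had a length difference with an adjusted p under 0.05 (exact permutation tests). A single member could not pass this adjustment, since Ddah2, with groups fully apart and the smallest possible p, had 0.0794. The count of 0 therefore does not show that the lengths were alike.

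**Figure D3:**
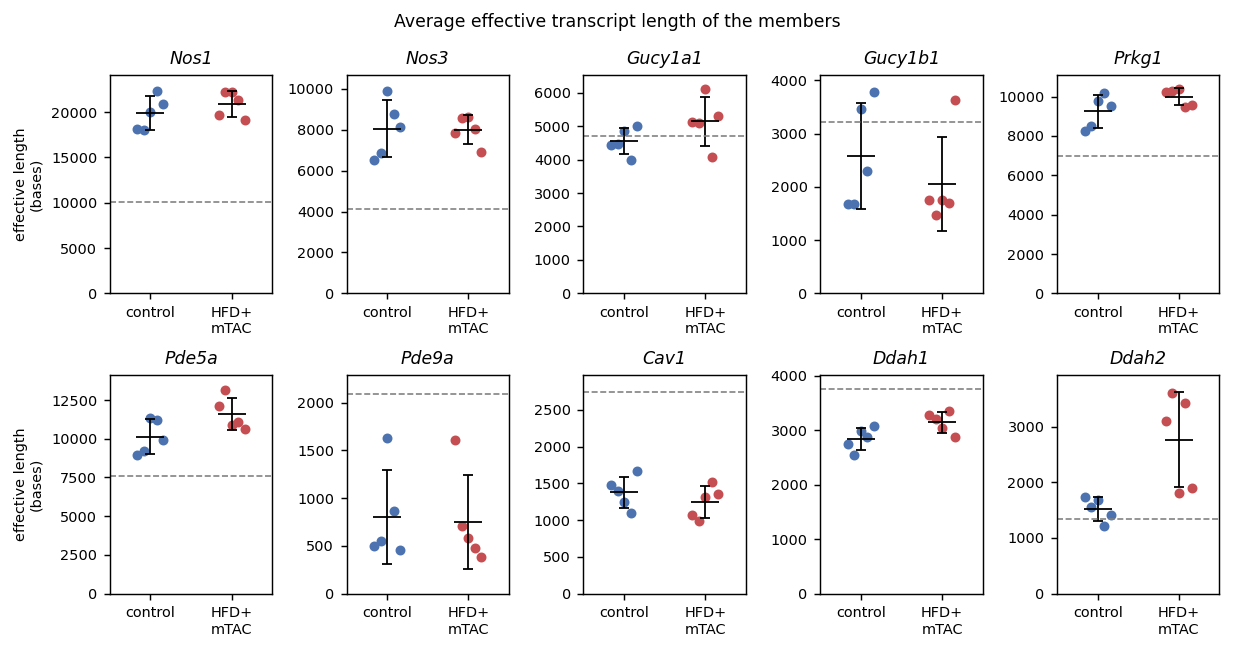
Deposited average effective transcript length in bases (linear axis from 0) of the 10 members, with 1 point per mouse, mean and SD of 5 mice as a bar, and the longest transcript annotated in GENCODE M21 as a dashed line. For Ddah2 the HFD+mTAC mice, at 1815 to 3602 bases, lie above the controls, at 1216 to 1729, and for 4 members every point is above the dashed line.

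Ordered by mean TPM over the 10 mice, the members ran from Cav1 (74.4 ± 8.25, SD, n = 10) through Gucy1b1 (2.95 ± 1.08), Ddah2 (2.02 ± 0.734), Gucy1a1 (1.49 ± 0.381), Nos3 (1.40 ± 0.478) and Pde9a (1.14 ± 0.677) to Ddah1 (0.526 ± 0.140), Prkg1 (0.293 ± 0.0521), Pde5a (0.164 ± 0.0552) and Nos1 (0.00238 ± 0.00191). Cav1 was above the next gene in 10 of 10 mice, and was higher than 97.8% of the genes tested. From Gucy1b1 to Ddah1, each gene was above the next in 7 of 10 mice, so neighbours in that stretch overlapped in their spread. Ddah1 was above Prkg1 in 9 mice, and the last steps of the order, Prkg1 above Pde5a and Pde5a above Nos1, held in all 10. These levels depend on the lengths given above. The ratio of Cav1 to Nos3 was 37.1 to 73.9 in control mice and 33.5 to 89.0 in HFD+mTAC mice (exact permutation test of the log2 ratio, p = 0.365, adjusted 0.365). For Ddah1 to Ddah2 it was 0.129 to 0.308 and 0.175 to 0.604 (p = 0.349 by the same exact test, adjusted 0.365), with a log2 difference of 0.37 in TPM and of -0.29 in CPM. For Nos1 to Nos3 it was 0.00140 to 0.00441 and 0.000393 to 0.00692 (exact test, p = 0.286, adjusted 0.365), computed with 0.5 times the lowest Nos1 value above 0 added to each Nos1 value. Of the 6 ratios, 0 passed the test.

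Around the members, 69 further genes of the pathway were listed by role, of which 61 passed the filter. Of these 61, 0 were called by edgeR. The log2 fold change was above 0 for 21 and below 0 for 40, with a median log2 fold change of -0.08, where 50.3% of all genes tested were above 0. An unadjusted p under 0.05 was found for 5 higher and 5 lower genes, against 8.27% of all genes, and the CPM of the groups did not overlap for 2 of the 61, against 1.96% of all genes. DESeq2 called 2 of them, Gchfr and Slc7a1, in a test that called 0.921% of all genes.

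Among 21 cofactor and regulator genes of the synthases, 6 were higher and 15 lower. Gchfr, the feedback regulator of GTP cyclohydrolase, had the smallest p of those that were lower. It read 3.89, 4.26, 5.00, 4.30 and 3.85 CPM in control mice and 2.82, 2.00, 3.08, 1.91 and 2.39 CPM in HFD+mTAC mice. The groups did not overlap in CPM, which held for 1.96% of all genes tested in either direction. The log2 fold change was -0.81 (SE 0.20, interval -1.23 to -0.38), with adjusted p = 0.250 by edgeR and 0.0248 by DESeq2. Per length it was -0.78 on log2(TPM + 1) (limma adjusted p = 0.399) and -0.95 with lengths as offset (edgeR adjusted p = 0.492). In TPM the groups overlapped, with HFD+mTAC mouse TT-592 at 0.761 above control mouse TT-587 at 0.739. Gch1, the cyclohydrolase itself, which begins the synthesis of the cofactor tetrahydrobiopterin, had 12.2 ± 2.48 CPM in control and 11.3 ± 2.06 in HFD+mTAC mice (SD, n = 5 each; edgeR adjusted p = 0.920).

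Of the 9 arginine and methylarginine genes tested, 4 were higher and 5 lower. Slc7a1, a carrier of arginine and other cationic amino acids, read 99.0, 94.9, 122, 117 and 97.8 CPM in control mice and 69.0, 71.0, 56.4, 47.9 and 87.7 CPM in HFD+mTAC mice. In CPM, all 5 HFD+mTAC mice were below all 5 controls, mouse TT-592 by the least, where 1.96% of all genes did not overlap in either direction. The log2 fold change was -0.68 (SE 0.15, interval -0.99 to -0.36), with adjusted p = 0.186 by edgeR and 0.00616 by DESeq2. Per length it was -0.60 on log2(TPM + 1) (limma adjusted p = 0.510) and -0.80 with lengths as offset (edgeR adjusted p = 0.308). In TPM the groups overlapped, with mouse TT-592 at 0.608 above control mice TT-586 (0.549) and TT-587 (0.480). Prmt2, a protein arginine methyltransferase, had the smallest p among the higher genes (log2 fold change 0.09, edgeR adjusted p = 0.862). The arginases Arg1 and Arg2 had 0 to 10 and 0 to 7 counts and were not tested.

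All 4 tested genes of cyclic GMP synthesis outside the members were higher, with none called. Npr2, the guanylyl cyclase receptor of C-type natriuretic peptide, had 76.3 ± 6.52 CPM in control and 89.0 ± 3.29 in HFD+mTAC mice (SD, n = 5 each), and its log2 fold change was 0.22 (SE 0.08, edgeR adjusted p = 0.421). Npr1, the receptor of the atrial and B-type peptides, had 43.0 ± 7.17 and 46.1 ± 6.96 CPM (log2 fold change 0.10, edgeR adjusted p = 0.908).

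The 9 other phosphodiesterase genes held the widest range of log2 fold changes, from -1.41 to 1.38, with 3 higher and 6 lower. Pde11a was rare, at 1.01, 0.841, 1.08, 0.423 and 0.393 CPM in control and 2.31, 3.69, 1.15, 2.05 and 0.798 CPM in HFD+mTAC mice. Of the 5 HFD+mTAC mice, 4 were above every control, and the log2 fold change was 1.38 (SE 0.44, edgeR adjusted p = 0.380). Pde2a, which cyclic GMP itself stimulates, read 23.0, 17.6, 19.9, 12.3 and 69.0 CPM in control mice and 2.37, 7.26, 20.6, 9.76 and 13.2 CPM in HFD+mTAC mice. Its log2 fold change of -1.41 (SE 0.53, edgeR adjusted p = 0.478) is uncertain beyond this spread, since the annotated gene Gm45837 covers its locus on the same strand and reads could be split between them. Without control mouse TT-587 it was -0.79 (edgeR adjusted p = 0.627). Pde1b and Pde1c, of the calcium- and calmodulin-stimulated family, were the other 2 with an unadjusted p under 0.05, at 0.64 and -0.35 (edgeR adjusted p = 0.567 and 0.542), and are named here after their values were seen. Pde1a had 11.1 ± 1.20 and 10.4 ± 1.69 CPM, and Pde3a 114 ± 16.9 and 114 ± 29.0 CPM, in control and HFD+mTAC mice (SD, n = 5 each; edgeR adjusted p = 0.918 and 0.999).

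Of 11 tested genes of the kinase and its substrates, 2 were higher and 9 lower. Tnni3, cardiac troponin I, had the smallest p among them (log2 fold change -0.22, SE 0.10, edgeR adjusted p = 0.600), and Rgs4, a regulator of G-protein signaling, the smallest of the higher genes (0.11, edgeR adjusted p = 0.947). Per length the log2 difference of Rgs4 was larger, 1.17 on log2(TPM + 1) (limma adjusted p = 0.706) and 1.73 with lengths as offset (edgeR adjusted p = 0.580), and 4 of the 5 HFD+mTAC mice, at 0.643 to 2.45 TPM, were above every control, while mouse TT-590 was at 0.284 TPM. Mrvi1, the kinase substrate that restrains calcium release in smooth muscle, had 30.3 ± 2.62 and 28.6 ± 6.15 CPM in control and HFD+mTAC mice (SD, n = 5 each; edgeR adjusted p = 0.921). Of 7 genes that remove nitric oxide or export cyclic GMP, 2 were higher and 5 lower. Cytoglobin (Cygb), a globin that consumes nitric oxide, had 115 ± 7.53 and 137 ± 18.3 CPM (log2 fold change 0.24, edgeR adjusted p = 0.514), and Adh5, which reduces S-nitrosoglutathione, 62.0 ± 6.57 and 52.6 ± 8.49 CPM (-0.24, edgeR adjusted p = 0.629).

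**Figure D4:**
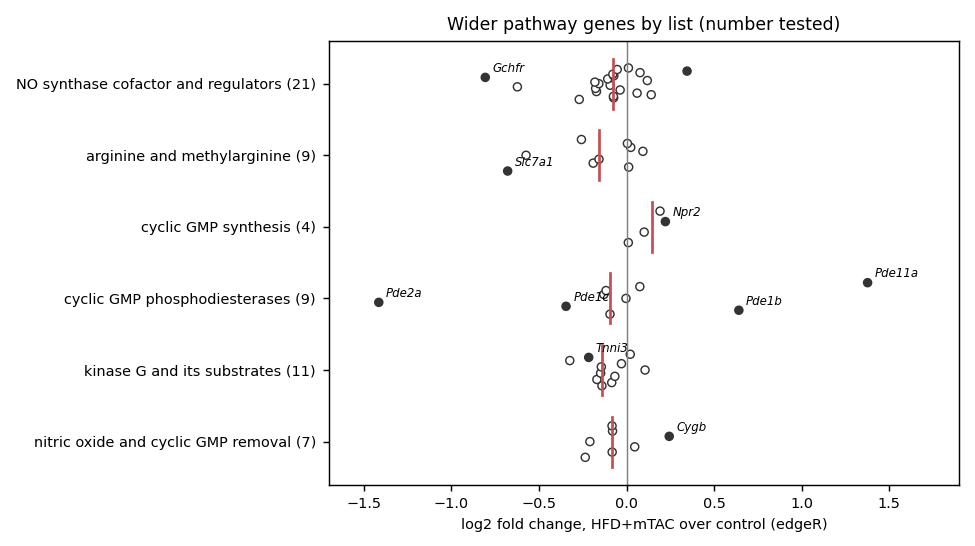
Log2 fold change of HFD+mTAC over control mice (x axis, edgeR) of the 61 wider pathway genes tested, grouped by list (y axis, number tested in brackets), with filled points for an unadjusted p under 0.05 and a red line at the median of each list. No point has an adjusted p under 0.05, and most points lie within 0.3 of 0 while Pde2a at -1.41 and Pde11a at 1.38 lie farthest out.

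The members belong to different cells of the ventricle, and in bulk tissue fewer cells of a type cannot be told apart from less RNA per cell. The summed level of 10 endothelial markers was 102 to 189 TPM in control and 78.5 to 169 TPM in HFD+mTAC mice, and 0 of the 10 markers were called. The 6 smooth muscle markers summed to 38.0 to 65.9 and 30.8 to 57.1 TPM, and the 8 pericyte markers to 62.6 to 105 and 52.8 to 86.6 TPM. Cardiomyocyte markers summed to 7690 to 9700 and 6630 to 8760 TPM. Markers of adipocytes summed to at most 0.700 TPM, and Plin1 had at most 1 count in any mouse. Of the brown adipocyte list, Ucp1 had 0 counts in all 10 mice, whereas Cidea had 424 to 858 counts. Cidea did not overlap between the groups in CPM, which held for 1.96% of all genes tested in either direction. It had 38.9 ± 5.43 CPM in control and 50.9 ± 4.21 in HFD+mTAC mice (SD, n = 5 each, log2 fold change 0.39, edgeR adjusted p = 0.284). Per length its log2 difference was smaller, 0.17 on log2(TPM + 1) (limma adjusted p = 0.907) and 0.12 with lengths as offset (edgeR adjusted p = 0.910). Of the mesothelial list, Msln had 0 counts in all 10 mice and Wt1 186 to 519. Of the 19 summed marker and pathway lists, 0 passed the test (exact permutation tests, lowest adjusted p = 0.377). The smallest p that 5 mice against 5 allow is 0.00794, so a single list could not pass after adjustment over 19, even with groups fully apart. The count of 0 therefore does not show that the lists were alike. The part of these cell types in the values of the members was not tested.

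Between mice, the members varied together only loosely. Over the 10 mice and 45 pairs of members, 0 pairs had an adjusted p under 0.05. Before adjustment the permutation p was under 0.05 for Nos1 and Gucy1b1 (r = -0.67, p = 0.0347) and for Nos3 and Ddah2 (r = 0.66, p = 0.0392). It was also under 0.05 for Nos3 and Cav1 (r = 0.64, p = 0.0472), and for Cav1 and Ddah2 and Pde9a and Ddah2, both given below. The strongest pair by p was Cav1 and Ddah2, with Pearson r = 0.75 (p = 0.0123, adjusted 0.345) and Spearman rho = 0.50 (p = 0.143, adjusted 0.497) in permutation tests, r = 0.55 without the 2 mice farthest from the median of Cav1, and r = 0.74 for deviations from the group means. Nos3 and Prkg1 had r = -0.61 over all mice (permutation p = 0.0614, adjusted 0.345; rho = -0.55, p = 0.104, adjusted 0.497), -0.34 without the 2 farthest mice and -0.75 for deviations from the group means. The cyclase subunits had r = 0.52 (permutation p = 0.121, adjusted 0.494; rho = 0.47, p = 0.179, adjusted 0.576), 0.16 without the 2 mice farthest from the median of Gucy1a1 and 0.71 for deviations from the group means. Without mouse TT-583, Pde9a and Ddah2 were the 1 pair that passed (r = 0.90, exact permutation p = 0.000725, adjusted 0.0326). That adjustment covers the 45 pairs of this omission and not the omissions of other mice. Over all 10 mice this pair had r = 0.67 (permutation p = 0.0345, adjusted 0.345) and rho = 0.62 (permutation p = 0.0590, adjusted 0.497).

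**Figure D5:**
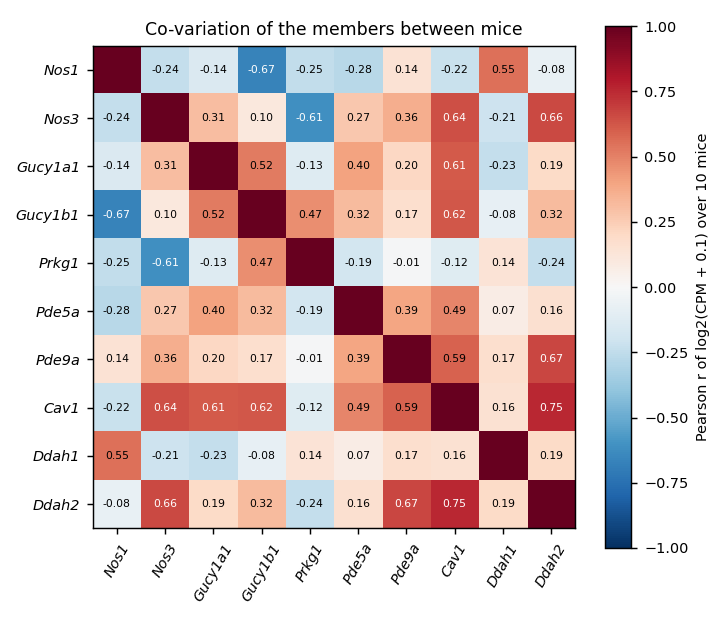
Pearson correlation of log2(CPM + 0.1) over the 10 mice for each pair of members, coloured from -1 (blue) to 1 (red) with the value printed in each cell. The values run from -0.67 for Nos1 and Gucy1b1 to 0.75 for Cav1 and Ddah2, and none of the 45 passes adjustment.

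Among the 10099 tested genes with a mean of at least 5 CPM, those whose pattern over the 10 mice was most like that of Nos3 were Rasip1 (r = 0.97), Ilk (r = 0.96) and Ifi27 (r = 0.95). For Gucy1a1 they were Trove2, Nr2c1 and Zfp748 (r = 0.94, 0.93 and 0.92), and for Pde5a Igf1, Rtn3 and Nip7 (r = 0.91, 0.90 and 0.89). For Nos1 they were Nudt2, Ap2a1 and Phykpl (r = 0.92, 0.91 and 0.91), from a pattern that rests on 0 to 15 Nos1 counts per mouse. These are the highest of many values over the 10 mice, and all genes of a mouse come from the same library. They are given as a description.

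Several members share their locus with another annotated gene on the opposite strand, namely Nos1, Nos3 (which also meets Atg9b at its end), Prkg1 (which holds Cstf2t), Pde5a, Pde9a and Cav1. These overlaps are of whole gene spans, introns included, and overlap of exons was not tested. The library kit keeps strand, but whether the counting used it is not given in the sources used here. Whether the counts include reads of these partners was not tested. Gucy1a1, Gucy1b1, Ddah1 and Ddah2 have no partner on the opposite strand, but a ribosomal protein pseudogene lies within Ddah1.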

How the data were processed

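Left ventricular polyadenylated RNA of 10 mice was sequenced with a stranded kit (100-base single-end reads per the labels, paired-end reads in the methods). The authors trimmed reads with fastp and estimated transcript abundance with salmon (Salmon 1.6.0 in the submitters' processing notes, which name hg38; the methods name GENCODE transcripts of GRCm38). The authors deposited expected counts per gene from tximport, not normalized, TPM values, and average effective transcript lengths in bases; 20.07% of the counts are not whole.

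For testing, the rounded counts were fitted by edgeR 4.0.16 under R 4.3.3 (TMM, quasi-likelihood test, Benjamini-Hochberg adjusted p under 0.05 over 13297 genes, 5 mice per group, no covariate). SE is the log2 fold change over the root of F. Alternatives were DESeq2 1.42.0 (size factors, test), upper-quartile factors, limma 3.58.1 on log2(TPM + 1) and log2(TPM + 0.1), other filters, all biotypes, lengths as offset, the robust test and omission of each mouse. Two-sided exact permutation tests over all arrangements of 5 mice against 5 served for ratios, lengths and summed lists (scipy 1.17.1, Python 3.11.15), and correlations with 100000 permutations of log2(CPM + 0.1). The fits were tested on simulated data. The files name genes by symbol, matched to GENCODE M21 (GRCm38) for coordinates: 27812 of 29564 directly, 861 through older symbols.

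The members and lists were chosen with earlier results of these data known. Named besides the members are, per wider list, the gene with the smallest unadjusted p in each direction, plus Nos2, Gucy1a2, Npr1, Cav3, Gch1, Pde1a, Pde2a, Pde3a and Mrvi1, and the 3 genes most correlated with each of Nos1, Nos3, Gucy1a1 and Pde5a. Some genes that this rule selects are not reported here. Depth, 12.7 to 21.1 M coding counts per mouse, sets the precision of rare genes such as Nos1. P-values measure the spread between these mice. Intervals from counts of 0 cover counting error only. Pairs of libraries in a group differed by more than sampling noise (chi-square per degree of freedom at least 12.9).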

Additional observations from a re-analysis of the deposited data

Results flagged for a closer look

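In 52 groups of 5 mice (levels, lengths and ratios of the members), 5 held 1 mouse far from the other 4, where chance flags about 1 group in 20. For the level of Nos1 it was HFD+mTAC mouse TT-589, at 0.907 CPM against at most 0.231 in the rest of its group, which are 15 counts against at most 3. For the effective length of Gucy1b1 it was HFD+mTAC mouse TT-592, at 3627 bases against at most 1756. For the effective length of Pde9a it was HFD+mTAC mouse TT-588, at 1611 bases against at most 706. The ratio of Ddah1 to Ddah2 in TPM was lowest in control mouse TT-587, at -2.95 on the log2 scale against -1.89 for the nearest mouse. The ratio of Pde5a to Pde9a was highest in HFD+mTAC mouse TT-588, at -1.15 against -3.11 for the nearest, and the length of Pde9a in that mouse is among the values above.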

How the results depend on the processing

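In the 20 other fits, 0 of the members fitted were called. Nos1 could be fitted in 10 of them, since it did not pass edgeR's own filter or, apart from the omission of mouse TT-588, the filter with a mouse left out. Over all genes, 8 calls became 120 with the DESeq2 test, 1 with limma on log2(TPM + 1) or log2(TPM + 0.1), 1 with lengths as offset, and 1 to 9 with a mouse left out (1 without mouse TT-584, TT-587, TT-588, TT-590 or TT-592, and 2 without TT-585). Of members and wider genes together, DESeq2 called 2 and edgeR 0. Correlated pairs numbered 0, and 0 to 1 with a mouse left out. With log2(TPM + 1), log2(TPM + 0.1) and lengths as offset in turn, signs turned for Ddah2 (-0.48, -0.52 and -0.46), Pde1a (0.10, 0.12 and 0.11) and Mrvi1 (0.024, 0.023 and 0.021), and with both limma fits for Adh5 (0.11 and 0.11). Pde3a was 0.0017 with upper-quartile factors. On CPM the ratio of Ddah1 to Ddah2 was -0.29, and the endothelial, pericyte, macrophage and mesothelial sums were 8.485e-05, 0.025, 0.0455 and -0.11. The difference of medians of the Pde9a length was 24.8 bases. With a mouse left out, log2 differences crossed 0 for Nos3 (-0.071 to 0.089), Ddah1 (-0.18 to 0.076), Gucy1a1 (-0.20 to 0.039), Gucy1a2 (-0.28 to 0.29), Pde3a (-0.11 to 0.087), Rgs4 (-0.17 to 0.24), the lengths of Nos3 (-425 to 419 bases) and Pde9a (-267 to 155 bases), and the sums of macrophage (-0.14 to 0.11), cofactor and regulator (-0.24 to 0.058), brown adipocyte (-0.14 to 0.20), erythroid (-0.80 to 0.058) and mesothelial genes (-0.10 to 0.58). The cause was not tested. No paired analysis was possible because each mouse number belongs to 1 mouse.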
